A study of Bos taurus with 15 samples.

Results

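The hypoblast and basement membrane genes followed here are 9 bovine genes, chosen by symbol: GATA6, GATA4, SOX17, HNF4A, PDGFRA, FN1, COL4A1, COL4A2 and LAMC1. In the files they carry the NCBI Gene identifiers 654400, 327716, 534010, 509200, 282301, 280794, 282191, 508632 and 532572, in that order. They are 9 of the 34773 genes of the unfiltered read count table. The filtered table of 10832 genes held 8 of them, and SOX17 was read from the unfiltered table. RNA was sequenced from pools of 8 to 14 blastocysts produced in vitro, with 5 libraries per treatment and 1 ng of RNA per library. Control embryos (Co) were cultured without supplementation. FeEV embryos were cultured with freshly isolated oviductal extracellular vesicles (oEVs), the membrane-bound particles that oviduct cells release, and FoEV embryos with oEVs that had been frozen. The oEVs came from oviducts of slaughtered cows in the postovulatory stage, and a pool mixes all cells of its embryos. The labels place collection at day 7, a day earlier than the methods of the study. All 15 libraries came from the pools with the best RNA, so the pools that gave less RNA are not represented.

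The hypoblast, also called primitive endoderm, is the layer of the inner cell mass that comes to line the blastocyst cavity and later the yolk sac. In mammals its precursors express GATA6, which opposes the epiblast factor NANOG, and fibroblast growth factor signalling tips cells towards it. Maturing hypoblast expresses further transcription factors and the receptor PDGFRA, and lays down a basement membrane, a sheet built from a laminin network and a type IV collagen network joined by nidogen and perlecan. Fibronectin is deposited with it. Trophectoderm also makes matrix proteins, and early bovine blastocysts carry GATA6 outside the hypoblast, so these transcripts are not specific to a single layer in RNA of whole embryos. In such bulk RNA, fewer cells of a type and less RNA per cell cannot be told apart.

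The depth, as reads counted on genes, ran from 2136713 to 4058887 per library. Every FoEV library (3392613 to 4058887 counts) was deeper than every Co library (2571558 to 2977004), while FeEV libraries ranged from 2136713 to 3808602. Levels are given in CPM, a gene's counts relative to the library total, scaled by TMM factors that correct for library composition. Levels were not compared between genes, because transcript lengths were not at hand.

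None of the 8 genes tested differed between treatments after adjustment over all genes. For FoEV against Co, 0 of 8 had an adjusted p under 0.05 (edgeR quasi-likelihood F test with Benjamini-Hochberg adjustment), beside 0.00923% of all genes, and the smallest adjusted p among them was 0.331. At an unadjusted p under 0.05 the same comparison held 1 of the 8, FN1 with a lower level in FoEV, beside 15.1% of all genes, 6.88% with a lower and 8.18% with a higher level in FoEV. The fitted difference was below 0 for 6 of 8 genes, beside 47.7% of all genes, and its median was -0.19 on the log2 scale against 0.01 over all genes. No gene among the 8 had FoEV libraries that were all above or all below the Co libraries, which 2.6% of all genes had.

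The comparison of FeEV with Co gave 0 of 8 at the adjusted and 0 of 8 at the unadjusted threshold, beside 0% and 4.15% of all genes (2.32% lower and 1.83% higher in FeEV). There, 7 of 8 differences were below 0, beside 49% of all genes, with a median of -0.12. FoEV against FeEV also gave 0 of 8 at both thresholds, beside 0% and 8.52% of all genes (3.69% lower and 4.83% higher in FoEV), with 3 of 8 differences below 0, beside 48.2% of all genes, and a median of 0.01. The groups of libraries overlapped for all 8 genes in both comparisons, beside 0.951% and 1.5% of all genes with groups apart. Since both oEV treatments were compared with the same Co libraries, the 2 comparisons with Co are not independent.

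The robust dispersion with the likelihood ratio test, the procedure of the study's methods, was run beside this fit. It gave 1 of 8 at the adjusted threshold for FoEV against Co, HNF4A, among 311 genes called in all. The study reported fewer genes for this comparison, so the calls of this run need not be the study's own. At the unadjusted threshold it gave 3 of 8 (HNF4A, PDGFRA and COL4A2), beside 1962 of all 10832 genes. DESeq2 gave 0 of 8 at the adjusted threshold, among 144 genes called in all. At the unadjusted threshold it gave 2 of 8 (HNF4A and FN1), beside 1588 of all 10832 genes. For FeEV against Co, 1 of 8 passed the unadjusted threshold with the robust test (COL4A2) and 0 with DESeq2, beside 664 and 411 of all 10832 genes. For FoEV against FeEV both gave 0 of 8 at either threshold, beside 1193 and 902 of all 10832 genes at the unadjusted one.

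**Figure D1:**
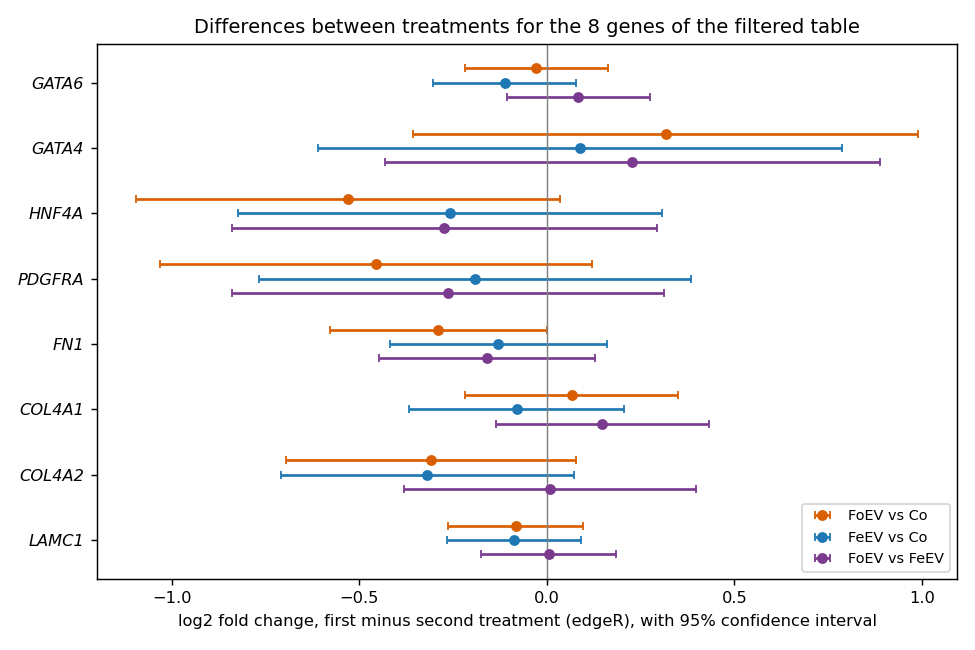
Fitted log2 fold change (x axis, first minus second treatment) with its 95% confidence interval for the 8 genes of the filtered table (y axis), in orange for FoEV against Co, blue for FeEV against Co and purple for FoEV against FeEV. GATA6 and LAMC1 have the shortest intervals and GATA4, HNF4A and PDGFRA long ones, and every interval crosses 0 except that of FN1 for FoEV against Co, which ends just below 0.

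GATA6 is the transcription factor that starts the hypoblast programme. Its level in Co replicates 1 to 5 was 420.4, 488, 397, 463 and 416 CPM. In FeEV it was 411, 432, 393, 437 and 347 CPM, and in FoEV 429.5, 382, 471, 480.1 and 379 CPM. The 3 groups covered nearly the same range. Co libraries averaged 437 ± 37.5, FeEV libraries 404 ± 36.3 and FoEV libraries 428 ± 47.6 CPM (SD, n = 5). The log2 difference of FoEV from Co was -0.03 (SE 0.092, adjusted p = 0.909), and its 95% interval corresponds to a fold of 0.859 to 1.12. FeEV differed from Co by -0.11 (SE 0.092) and FoEV from FeEV by 0.08 (SE 0.092).

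GATA4, a zinc finger factor that follows GATA6 in the hypoblast, was close to the detection limit. The counts were 25, 5, 14, 9 and 12 reads in Co, 25, 10, 17, 8 and 17 in FeEV, and 21, 24, 27, 15 and 23 in FoEV. The Co libraries thus spanned the widest range and enclosed all others after scaling, from 1.69 to 9.12 CPM. The smallest count, 5 reads in Co replicate 2, has an exact 95% Poisson interval of 1.62 to 11.7 reads, which covers counting error only. Mean levels were 4.77 ± 2.73 CPM for Co, 4.97 ± 1.55 for FeEV and 5.93 ± 1.05 for FoEV (SD, n = 5). The log2 difference of FoEV from Co was 0.32 (SE 0.325, adjusted p = 0.672), with an interval from 0.781-fold to 1.99-fold. Without Co replicate 1, the highest Co library, the difference was 0.69 with an unadjusted p of 0.0421 and an adjusted p of 0.274.

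SOX17, a factor of endoderm and hypoblast, had too few reads for the filtered table. Its counts were 4, 4, 6, 5 and 4 reads in Co, 13, 5, 5, 2 and 6 in FeEV, and 14, 3, 4, 7 and 8 in FoEV. All libraries held at least 2 reads, and replicate 1 held the most reads in both oEV treatments. The highest count of 14 reads has an exact Poisson interval of 7.65 to 23.5 reads and the lowest of 2 reads one of 0.242 to 7.22. Mean levels of 1.68 ± 0.288 CPM for Co, 1.98 ± 1.12 for FeEV and 1.92 ± 1.00 for FoEV (SD, n = 5) were not distinguishable at this depth. In a fit of the unfiltered table, SOX17 in FoEV differed from Co by 0.19 on the log2 scale (SE 0.512, unadjusted p = 0.708).

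HNF4A, a nuclear receptor of visceral endoderm and later liver, had the most negative fitted difference of the 8 genes for FoEV against Co. The Co libraries held 85.7, 87.4, 45.1, 104.0 and 86.6 CPM. The FeEV libraries held 56.3, 59.4, 57.6, 87.0 and 81.6 CPM, and the FoEV libraries 30.3, 56.5, 92.6, 51.4 and 51.8 CPM. In Co, 4 of 5 libraries lay together and replicate 3 lay well below them. In FoEV, 4 of 5 lay below 57 CPM and replicate 3 lay among the 4 higher Co libraries. Only the FoEV library at 30.3 CPM lay outside the full Co range of 45.1 to 104.0 CPM. The means were 81.8 ± 21.8 CPM for Co, 68.4 ± 14.7 for FeEV and 56.5 ± 22.6 for FoEV (SD, n = 5).

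For HNF4A the difference of FoEV from Co was -0.53 (SE 0.264, unadjusted p = 0.0634, adjusted p = 0.362), and its 95% interval ran from 0.468-fold to 1.02-fold. The robust dispersion gave -0.68 with an adjusted p of 0.0374, so the call on HNF4A depends on how the spread between libraries is estimated. Over 10 other settings its adjusted p ranged from 0.0374 to 0.538. Leaving out FoEV replicate 3 gave -0.79 (unadjusted p = 0.00364) and leaving out Co replicate 3 gave -0.69 (unadjusted p = 0.0105), whereas leaving out Co replicate 4 gave -0.37 (unadjusted p = 0.143). The differences of FeEV from Co (-0.26, SE 0.264) and of FoEV from FeEV (-0.27, SE 0.265) were about as large as their errors.

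**Figure D2:**
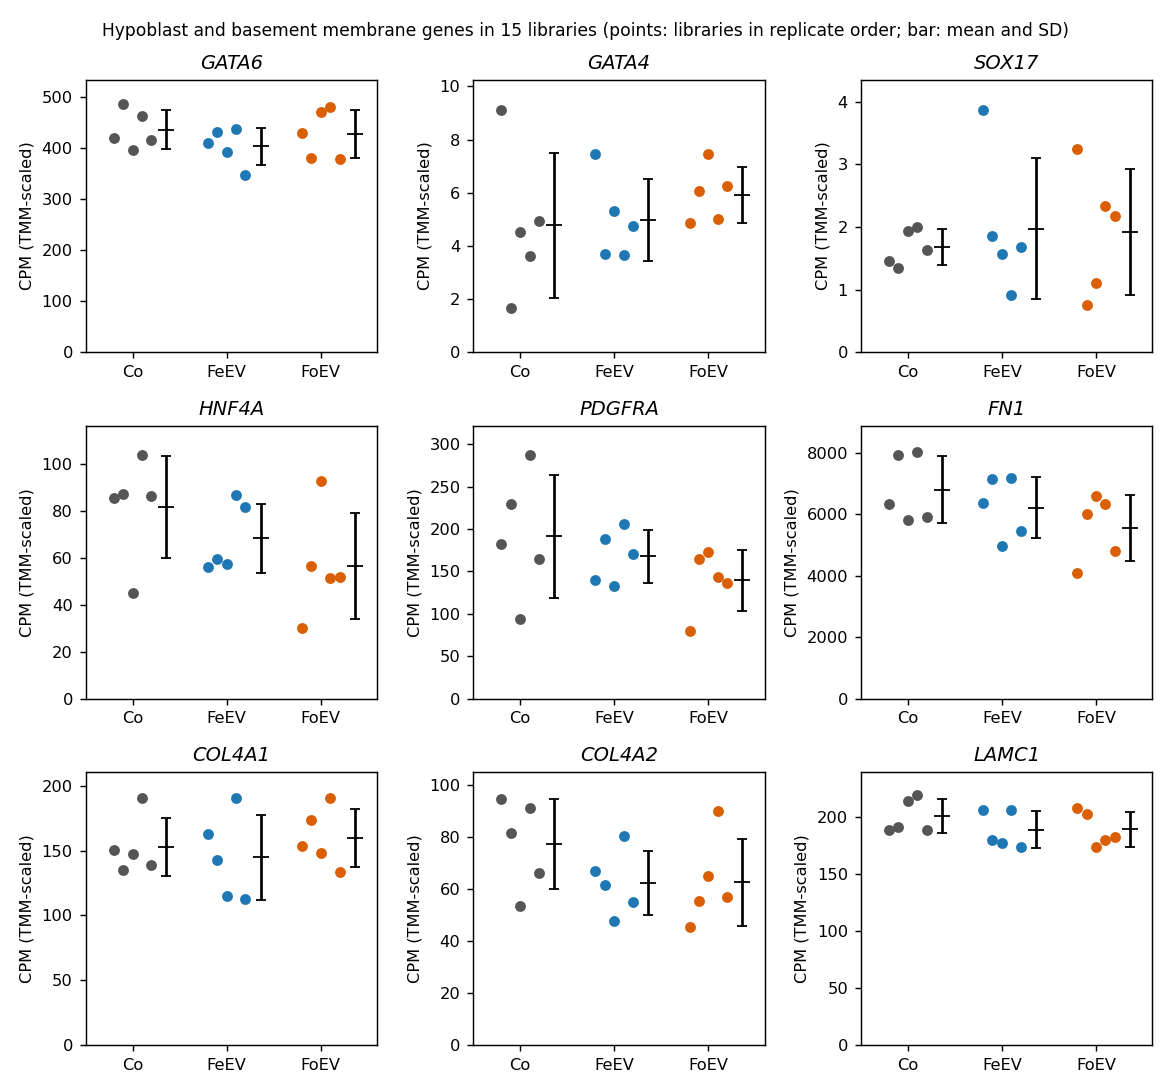
Level of each of the 9 genes (y axes, TMM-scaled CPM from 0, a separate scale per gene) in the Co, FeEV and FoEV libraries (x axes), with a point per library in replicate order and a bar for the mean and SD of 5 libraries. The treatments overlap for every gene, GATA6 and LAMC1 vary little within treatments, and Co replicate 3 and FoEV replicate 1 are the lowest libraries of their own treatments for HNF4A, PDGFRA, FN1 and COL4A2.

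PDGFRA encodes the alpha receptor for platelet-derived growth factors, the surface marker by which hypoblast is usually sorted. Levels in Co were 182, 229, 93.8, 287 and 165 CPM, the widest span of the treatments. FeEV libraries held 140.4, 189, 133, 206 and 171 CPM, and FoEV libraries 80.3, 165, 173, 144 and 136 CPM. The lowest FoEV library lay under all others and the highest Co libraries above all others, with the rest intermixed. Means were 191 ± 72.4 CPM for Co, 168 ± 31.3 for FeEV and 139.5 ± 36.3 for FoEV (SD, n = 5). FoEV differed from Co by -0.46 (SE 0.267, adjusted p = 0.438), an interval from 0.489-fold to 1.09-fold, and FeEV differed from Co by -0.19 (SE 0.267). Without Co replicate 3 the FoEV difference of PDGFRA was -0.63 (unadjusted p = 0.0096, adjusted p = 0.259), and without Co replicate 4 it was -0.26 (unadjusted p = 0.312).

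FN1 encodes fibronectin, the matrix glycoprotein that integrins bind. It took between 0.436% and 0.858% of all counts of a library. Co libraries held 6334, 7928, 5818, 8021 and 5917 CPM, FeEV libraries 6361, 7140.0, 4973, 7174 and 5443 CPM, and FoEV libraries 4096, 5994, 6608, 6341 and 4792 CPM. The FoEV libraries reached lower and the Co libraries higher than the others, with an overlap in between. The means were 6803 ± 1087 CPM for Co, 6218 ± 992 for FeEV and 5566 ± 1076 for FoEV (SD, n = 5).

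FN1 in FoEV differed from Co by -0.29 (SE 0.139, unadjusted p = 0.0496, adjusted p = 0.331), a fold of 0.818. This unadjusted p lay at the threshold. It was under 0.05 in 6 of 10 other settings, was 0.0507 with counts thinned to equal depth and 0.192 with the library number of the sample descriptions as a block, and its adjusted p ranged from 0.0917 to 0.551 over those settings. It stayed under 0.05 in 4 of 10 fits that left out a library, those without Co replicate 3 or 5 or FoEV replicate 3 or 4, and rose to 0.147 without FoEV replicate 1. FeEV differed from Co by -0.13 (SE 0.138) and FoEV from FeEV by -0.16 (SE 0.139).

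COL4A1 and COL4A2 encode the α1 and α2 chains, which assemble into the common type IV collagen molecule of basement membranes. Their genes are neighbours on chromosome 12, and in mammals they are transcribed in opposite directions from a shared promoter region. COL4A1 held 150.2, 135, 147, 191 and 139 CPM in Co, 163, 143, 115, 190.4 and 113 CPM in FeEV, and 154, 174, 148, 191 and 133 CPM in FoEV. Replicate 4 was the highest library of each treatment. The ranges overlapped, with FeEV replicates 3 and 5 below all other libraries. Means were 153 ± 22.3 CPM for Co, 145 ± 32.8 for FeEV and 159.8 ± 22.4 for FoEV (SD, n = 5), and FoEV differed from Co by 0.07 (SE 0.136, adjusted p = 0.846), from 0.860-fold to 1.27-fold.

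COL4A2 held 94.4, 81.3, 53.2, 91.1 and 66.1 CPM in Co, 66.8, 61.3, 47.5, 80.2 and 55.0 CPM in FeEV, and 45.4, 55.5, 65.0, 89.8 and 57.0 CPM in FoEV. Co replicates 1 and 4 exceeded all oEV libraries, Co replicate 2 all but FoEV replicate 4, and Co replicate 3 was the lowest of its treatment. Means were 77.2 ± 17.4 CPM for Co, 62.2 ± 12.4 for FeEV and 62.5 ± 16.8 for FoEV (SD, n = 5). The log2 differences from Co were -0.32 for FeEV (SE 0.186, unadjusted p = 0.104) and -0.31 for FoEV (SE 0.184, unadjusted p = 0.109), while FoEV and FeEV differed by 0.01 (SE 0.186). Leaving out Co replicate 3 took the unadjusted p of COL4A2 to 0.0246 for FeEV and 0.0260 for FoEV, and leaving out FoEV replicate 4 took the latter to 0.0108.

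The fitted differences of the 2 collagen genes from Co lay on opposite sides of 0 in FoEV, and after these values were seen their counts were compared within each library. Such a ratio is free of the scaling between libraries, though not of transcript length. COL4A1 counts were 1.59, 1.66, 2.77, 2.097 and 2.11 times the COL4A2 counts in Co, 2.44, 2.33, 2.42, 2.38 and 2.05 times in FeEV, and 3.38, 3.13, 2.28, 2.12 and 2.34 times in FoEV. The highest ratios belonged to FoEV replicates 1 and 2 and the lowest to Co replicates 1 and 2, while Co replicate 3 was higher than any FeEV library. The mean log2 ratio was 1.00 ± 0.320 for Co, 1.21 ± 0.102 for FeEV and 1.38 ± 0.300 for FoEV (SD, n = 5).

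The FoEV ratio exceeded the Co ratio by a log2 difference of 0.38 (exact permutation p = 0.0873, two-sided), the FeEV ratio exceeded it by 0.21 (exact permutation p = 0.254), and FoEV exceeded FeEV by 0.17 (exact permutation p = 0.349). With 5 libraries on each side, p cannot go below 0.00794. None of the 3 tests passed 0.05. A single Co library weighed on the outcome: without Co replicate 3 the exact permutation p was 0.0159 for FoEV and 0.0317 for FeEV, and without Co replicate 1 it was 0.183 and 0.437.

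**Figure D3:**
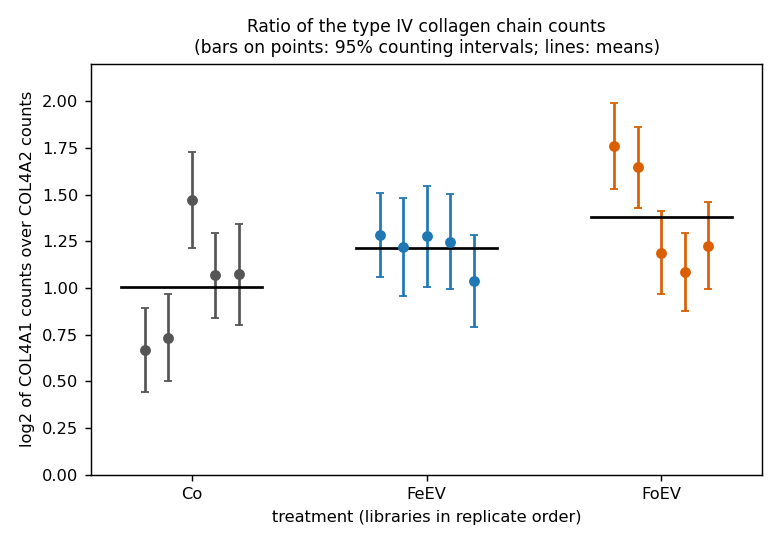
Log2 of COL4A1 counts over COL4A2 counts (y axis) in each Co, FeEV and FoEV library (x axis, replicate order), with bars of the 95% counting interval and a line for the treatment mean. The means step from 1.00 in Co to 1.21 in FeEV and 1.38 in FoEV, FeEV has the narrowest range with replicate 5 as its lowest library, and Co replicate 3 is the highest Co library.

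LAMC1 encodes the γ1 chain that most laminin trimers share. Its libraries held 189, 191, 214, 219.5 and 189 CPM in Co, 207, 180.1, 177, 207 and 174 CPM in FeEV, and 208, 203, 174, 179.6 and 183 CPM in FoEV. The ranges overlapped, with 2 Co libraries above all oEV libraries. FeEV replicates 2, 3 and 5 and FoEV replicates 3, 4 and 5 lay below all Co libraries. Means were 200.7 ± 15.0 CPM for Co, 189 ± 16.2 for FeEV and 189 ± 15.1 for FoEV (SD, n = 5). FoEV differed from Co by -0.08 (SE 0.086, adjusted p = 0.675), an interval from 0.834-fold to 1.07-fold, and FoEV from FeEV by 0.00 (SE 0.086).

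The 8 genes of the filtered table differed in how much they varied between pools of the same treatment. The biological coefficient of variation, the part of the spread that counting error does not cover, was 0.0964 for LAMC1 and 0.108 for GATA6, against a median of 0.148 over all genes of the filtered table. It was 0.154 for COL4A1, 0.160 for FN1 and 0.192 for COL4A2. PDGFRA (0.250), HNF4A (0.252) and GATA4 (0.260) varied most of the 8, each beyond 88.0% of all genes. The intervals above are widest for those 3 genes, so differences that these libraries could have shown for GATA6 and LAMC1 could have been missed for them.

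Part of this spread was shared. Deviations of log2 CPM from the treatment mean were compared over the 15 libraries as a description; all pairs share libraries and scaling. PDGFRA and HNF4A had a Pearson r of 0.87 (Spearman rho 0.81), and r was 0.66 without the 2 libraries farthest from the median of PDGFRA. PDGFRA and FN1 had an r of 0.80 (rho 0.93, and 0.78 without such libraries). FN1 also went with COL4A2 (r 0.75, rho 0.72) and with GATA6 (r 0.67, rho 0.66). HNF4A had an r of 0.63 with FN1 and 0.58 with COL4A2. Without the 2 libraries farthest from the median of HNF4A these were 0.41 and 0.23. Among all 10831 other genes of the filtered table ranked by r to PDGFRA, HNF4A was the 13th, FN1 the 37th and COL4A2 the 118th. Ranked by r to HNF4A, PDGFRA was the 9th, FN1 the 232nd and COL4A2 the 346th. Ranked by r to FN1, PDGFRA was the 84th, COL4A2 the 180th, GATA6 the 414th and HNF4A the 556th.

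Looking at PDGFRA, HNF4A, FN1 and COL4A2 together, a group formed after these values were seen, Co replicate 3 and FoEV replicate 1 were the lowest libraries of their treatments for 4 of 4 genes. FeEV replicate 4 was the highest of its treatment for 4 of 4 genes, Co replicate 4 and FoEV replicate 3 were the highest for 3 of 4, and FeEV replicate 3 was the lowest for 3 of 4. The deviation averaged over the 4 genes was -0.60 in Co replicate 3, -0.58 in FoEV replicate 1 and 0.39 in Co replicate 4 on the log2 scale. Without Co replicate 3, all of these 4 genes had an unadjusted p under 0.05 for FoEV against Co, beside 1406 of all 10832 genes. As that library was the lowest of Co for all 4, leaving it out had to raise their Co means. The count is therefore no separate support for a difference. Without Co replicate 2 or 4 or FoEV replicate 1, 2 or 5, none of the 8 genes passed that threshold, beside 1244 to 1956 of all genes.

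The remaining genes went with that group less evenly. GATA6, at an r of 0.67 with FN1 and 0.61 with COL4A2, had an r of 0.41 with PDGFRA and 0.27 with HNF4A. COL4A1 went with LAMC1 (r 0.65, rho 0.62) and with COL4A2 (r 0.64, rho 0.63) more than with PDGFRA (r 0.33). GATA4 had an r of -0.39 with GATA6, with few reads behind it.

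**Figure D4:**
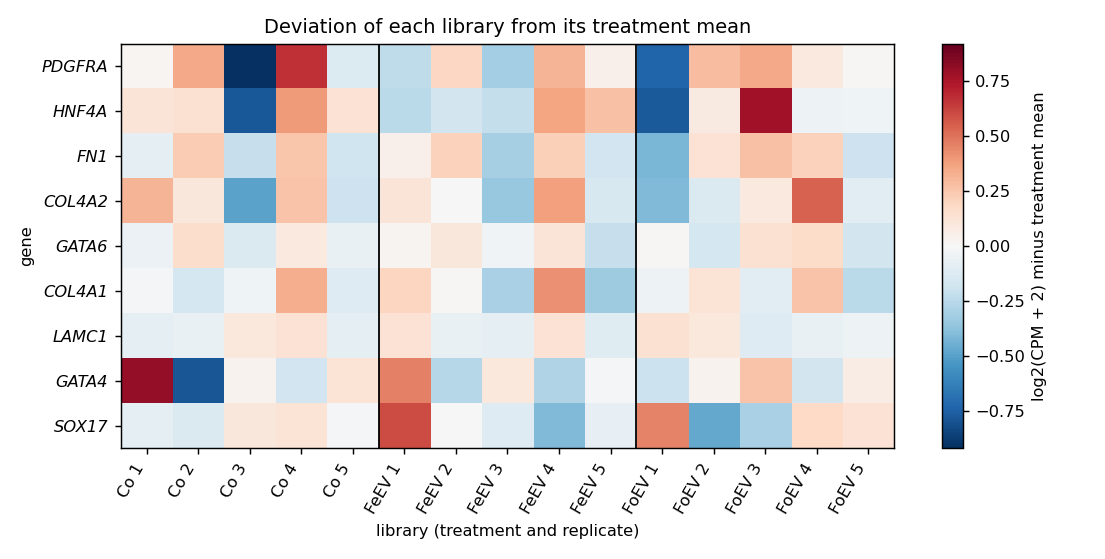
Deviation of each library (x axis, 5 Co, 5 FeEV and 5 FoEV libraries) from its treatment mean, in log2(CPM + 2), for the 9 genes (y axis), with blue for lower and red for higher values. PDGFRA, HNF4A, FN1 and COL4A2 are blue together in Co replicate 3 and FoEV replicate 1, while GATA6, COL4A1 and LAMC1 show no such columns and GATA4 and SOX17 rest on few reads.

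The genes of the filtered table whose deviations were most like each of the 8 were mostly not matrix or endoderm genes. For PDGFRA they were DDX17 (r 0.92), ZBTB44 (0.91) and AHCYL2 (0.90), and for FN1 they were ADD2 (0.93), STAT3 (0.93) and CAPRIN1 (0.91). HNF4A had NAPEPLD (0.91), NID1 (0.90) and ZBTB44 (0.89), of which NID1 encodes the basement membrane linker nidogen-1. COL4A2 had SSH1 (0.96), CDC42EP4 (0.91) and HNRNPF (0.91), and COL4A1 had ABR (0.91), PSD3 (0.88) and NDRG1 (0.87). LAMC1 went with RTN4, DNAJA1 and NCKAP5L (0.91, 0.91 and 0.89), GATA6 with H2BC15, BAG1 and COIL (0.88, 0.88 and 0.87) and GATA4 with ZNF276, RENBP and GORASP2 (0.90, 0.86 and 0.85). These r were picked as the highest of 10831 over 15 libraries and are a description.

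A wider set of hypoblast and yolk sac endoderm genes was listed to set the 9 genes in context. Of its 28 genes, 11 were in the filtered table, with a median log2 difference of -0.01 for FoEV against Co. In that comparison 1 of the 11 had an unadjusted p under 0.05, beside 15.1% of all genes. That gene was RSPO3, a secreted activator of Wnt signalling, at 10.4 ± 1.68 CPM in FoEV against 17.7 ± 7.13 in Co (SD, n = 5), a log2 difference of -0.76 with an adjusted p of 0.162, or 0.0411 without the filter on low counts. LRP2, the endocytic receptor megalin of visceral endoderm, stood at 3727 ± 1135 CPM in FoEV against 5328 ± 1298 in Co (SD, n = 5), a log2 difference of -0.52 with an adjusted p of 0.370. APOE, an apolipoprotein made by yolk sac endoderm among others, differed by 0.38 and IHH, a hedgehog ligand, by -0.65, with adjusted p values of 0.40 and 0.403. TTR and CER1, made by later visceral endoderm, had 0 reads in all libraries, FOXA2 had 0 to 2 reads and AFP 0 to 1, so late endoderm markers were at or near the floor of 3 reads.

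Of 28 further basement membrane genes, 15 were in the filtered table. For FoEV against Co, 2 of them had an unadjusted p under 0.05, both with lower levels in FoEV, beside 15.1% of all genes. Of the 15 differences 12 were below 0, beside 47.7% of all genes, with a median of -0.19. NID1 held 116 ± 49.1 CPM in FoEV against 209.6 ± 66.9 in Co (SD, n = 5), a log2 difference of -0.85 (SE 0.318, adjusted p = 0.233). With the robust dispersion and likelihood ratio test of the study's methods, the adjusted p of NID1 was 0.0132. FBLN1, which encodes the matrix protein fibulin-1, held 4.85 ± 2.52 CPM in FoEV against 9.83 ± 4.49 in Co (SD, n = 5), with an adjusted p of 0.286, or 0.0495 without the filter on low counts. For FeEV against Co, 12 of 15 differences were again below 0, beside 49% of all genes, with a median of -0.17. There, LAMA3 alone had an unadjusted p under 0.05 (-0.71 on the log2 scale), beside 4.15% of all genes.

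Chains that pair with LAMC1 in laminin trimers passed neither threshold for FoEV against Co in the cases that follow. LAMA1, the α1 chain of early embryonic laminin, differed between FoEV and Co by -0.19 (SE 0.111, adjusted p = 0.422). LAMB1, the β1 chain, differed by 0.04 and LAMA5, the α5 chain, by -0.03, with adjusted p values of 0.901 and 0.909. NID2, the second nidogen, differed by 0.34 (SE 0.195, adjusted p = 0.423), on the other side of 0 from NID1. HSPG2, which encodes perlecan, differed by 0.19, and SPARC, a collagen-binding protein, by -0.23, with adjusted p values of 0.440 and 0.625.

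Among 20 genes that fold, modify or export collagen, 17 were in the filtered table. For FoEV against Co, 2 of the 17 had an unadjusted p under 0.05, beside 15.1% of all genes. COLGALT1, which attaches galactose to collagen, differed by 0.31 (adjusted p = 0.216), and PLOD2, a lysyl hydroxylase, by -0.49 (adjusted p = 0.240). SERPINH1, the collagen chaperone that also stands in the hypoblast list, differed by 0.09 (SE 0.495), with a sign that changed with the setting. SEC24D, a coat protein of vesicles that carry cargo from the endoplasmic reticulum, and P4HA1, a prolyl hydroxylase, differed by -0.60 and -0.20, with adjusted p values of 0.370 and 0.401.

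Of 32 integrins and other matrix receptors with their adaptors, 23 were in the filtered table. For FoEV against Co, 3 of the 23 had an unadjusted p under 0.05, beside 15.1% of all genes. ITGA3, a subunit of a laminin receptor, held 63.4 ± 7.62 CPM in FoEV against 48.6 ± 4.24 in Co (SD, n = 5), and ITGA5, the fibronectin receptor subunit, 426 ± 25.7 and 369 ± 20.1 CPM. For both of these, each FoEV library was above each Co library, beside 2.6% of all genes with groups apart in either direction. Their log2 differences were 0.39 and 0.21, with adjusted p values of 0.177 and 0.193. ITGAV, another subunit of fibronectin-binding integrins, differed by -0.33 (adjusted p = 0.214), while their common partner ITGB1 differed by -0.10 (adjusted p = 0.556) and VCL, the adaptor vinculin, by -0.17 (adjusted p = 0.425).

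Of 21 genes of PDGF and fibroblast growth factor signalling, 15 were in the filtered table. For FoEV against Co, 1 of the 15 had an unadjusted p under 0.05, beside 15.1% of all genes. It was the adaptor FRS2 (-0.42, adjusted p = 0.165, or 0.0239 with the robust dispersion and likelihood ratio test). PDGFA, the ligand of PDGFRA, differed between FoEV and Co by 0.25 (SE 0.165, adjusted p = 0.477). GRB2, the adaptor that links such receptors to RAS, differed by 0.24 and SPRY2, a feedback inhibitor, by -0.37, with adjusted p values of 0.356 and 0.446. FGF4, the ligand of the epiblast, had 0 to 2 reads per library.

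Among 17 proteases and inhibitors that act on matrix, 12 were in the filtered table. For FoEV against Co, 3 of the 12 had an unadjusted p under 0.05, beside 15.1% of all genes. ADAMTS1, a protease that cuts proteoglycans, stood at 8.15 ± 1.99 CPM in FoEV against 15.9 ± 1.75 in Co (SD, n = 5), a log2 difference of -0.95 with an adjusted p of 0.0774. ADAM10, a membrane protease that sheds surface proteins, held 238 ± 32.5 and 301 ± 16.4 CPM, a difference of -0.34 with an adjusted p of 0.118. For both, all FoEV libraries were below all Co libraries, beside 2.6% of all genes with groups apart in either direction. The adjusted p of ADAMTS1 was 0.00229 with the robust dispersion and likelihood ratio test and 0.0093 without the filter on low counts. That of ADAM10 was 0.0237 with the robust dispersion and likelihood ratio test and 0.0122 with DESeq2. TIMP2, an inhibitor of metalloproteinases, differed by 0.57 (adjusted p = 0.135, or 0.0368 with the robust dispersion and 0.0125 without the filter) and SERPINE2, a protease inhibitor, by 0.18 (adjusted p = 0.438).

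**Figure D5:**
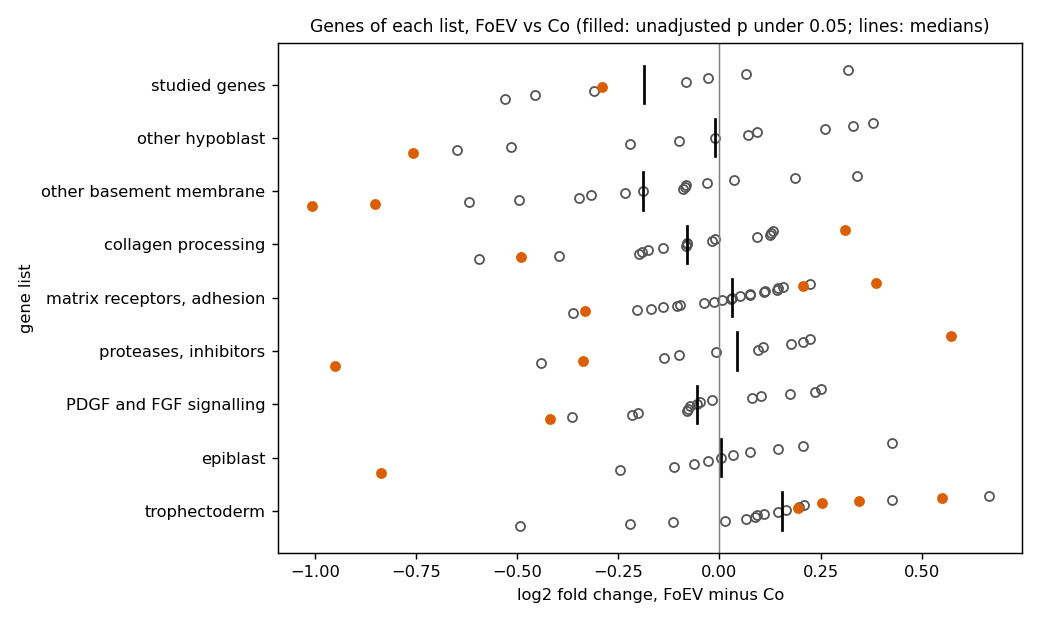
Log2 fold change of FoEV against Co (x axis) for the filtered-table genes of 9 lists (y axis), with a point per gene, filled where the unadjusted p was under 0.05, and a line for the list's median. The 8 studied genes and the other basement membrane genes have medians of -0.19, and the trophectoderm list has 4 filled points, all above 0.

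Markers of other cell types were read beside these results. Of 18 trophectoderm markers tested, 4 had an unadjusted p under 0.05 for FoEV against Co, all with higher levels in FoEV, beside 8.18% of all genes in that direction. Of the 18 differences 3 were below 0, beside 47.7% of all genes, and the median was 0.16. KRT18, a keratin of simple epithelia, held 3929 ± 520 CPM in FoEV against 2684 ± 404 in Co (SD, n = 5), a log2 difference of 0.55 with an adjusted p of 0.0818, and GATA3, GATA2 and KRT8 differed by 0.19, 0.34 and 0.25. The adjusted p of KRT18 was 0.00379 with the robust dispersion and likelihood ratio test, 0.00849 with DESeq2, 5.72e-06 without the filter on low counts and 0.0126 with replicate numbers as a block. CDX2, the trophectoderm factor, differed by 0.21 (adjusted p = 0.649). Summed over the 20 markers, levels ran from 12558 to 16319 CPM in Co, from 12952 to 18495 in FeEV and from 15005 to 19444 in FoEV. Over the 15 libraries, the deviations of KRT18 and FN1 had an r of -0.75 (rho -0.60). KRT18 had an r of -0.47 with PDGFRA, -0.42 with COL4A2 and -0.10 with HNF4A (rho -0.03). GATA3 had an r of -0.07 with FN1 and 0.29 with HNF4A. The part of these markers in the values of FN1 and HNF4A was not tested.

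NANOG, the epiblast factor that GATA6 opposes, was the only epiblast marker of 11 tested with an unadjusted p under 0.05 for FoEV against Co, beside 15.1% of all genes. It stood at 45.0 ± 16.7 CPM in FoEV against 80.4 ± 19.9 in Co (SD, n = 5), a log2 difference of -0.84 with an adjusted p of 0.178. For NANOG, that value was 0.0067 with the robust dispersion and likelihood ratio test and 0.0338 with DESeq2. SOX2, also an epiblast factor, differed by -0.03 (SE 0.251), POU5F1 by 0.21 (adjusted p = 0.368), UTF1 by 0.43 (adjusted p = 0.461) and PRDM14 by -0.24 (adjusted p = 0.510). Across libraries, deviations of NANOG went with those of HNF4A (r 0.87, rho 0.69) more than with those of FN1 (r 0.38, rho 0.33). Without the 2 libraries farthest from the median of HNF4A or of FN1, these r were 0.69 and 0.27. Summed over 15 epiblast markers, levels ran from 690.5 to 835 CPM in Co and from 627 to 959 in FoEV.

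Markers of cells that could adhere to embryos or oEVs were read in the same way. The 17 cumulus and granulosa markers summed to 139.7 to 399 CPM in Co and 164 to 407 in FoEV, mostly HSD3B1, with LHCGR, INHA and PTX3 at 0 to 1 read. The 15 fibroblast markers summed to 117 to 328 CPM in Co and 142 to 276 in FoEV, led by ACTA2 and COL1A2, and the 10 oviduct epithelium markers to 39.8 to 257 and 67.8 to 170.4 CPM, mostly MUC1. Of 9 blood markers, with HBB at 0 reads in all libraries, PECAM1 and VWF were in the filtered table, and the list summed to 95.1 to 122 CPM in Co and 103 to 131 in FoEV. Among low matrix genes of these lists, Co replicate 5 held the highest counts of COL3A1 (47 reads, next library 10), COL5A1 (22, next 12), VCAN (20, next 13) and POSTN (104, next 99). Other matrix genes peaked in FoEV replicate 1, among them COL1A2 (330, next 229), COL1A1 (132, next 116) and COL6A2 (27, next 22). COL6A1 (23, next 11) and DCN (21, next 15) did so too. These are raw counts, and FoEV replicate 1 was the deepest library, at 4058887 counts against 2779168 in Co replicate 5. Whether 1 library stood out in these lists after scaling was not tested. Without Co replicate 5, FN1 differed between FoEV and Co by -0.34 (adjusted p = 0.298) and PDGFRA by -0.50 (adjusted p = 0.432). In these 4 lists 6, 6, 3 and 2 genes were tested, with LUM in both the granulosa and the fibroblast list. Of them, 0 had an unadjusted p under 0.05 for FoEV against Co, beside 15.1% of all genes. Among 8 stress and immediate early genes, FOS alone passed that threshold, with a log2 difference of -0.62 and an adjusted p of 0.230, or 0.0202 with the robust dispersion and likelihood ratio test and 0.00876 without the filter.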

How the data were processed

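Bovine blastocyst pools were sequenced as strand-selected total RNA. The authors deposited read counts per gene without normalization, in an unfiltered and a filtered table. According to the study's methods, the authors mapped the reads to ARS-UCD1.2 (bosTau9) and counted them with QuasR Qcount. The submitters' processing notes name Trim Galore 0.4.3.1, HISAT2 2.1.0 and featureCounts 1.6.3, so the counting tool is uncertain. Reads that overlapping genes share may be split either way. Samples were grouped by treatment label.

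The filtered counts were fitted in edgeR 4.0.16 (R 4.3.3) with TMM, estimateDisp, robust glmQLFit and glmQLFTest, with treatment as the only factor over 15 libraries and Benjamini-Hochberg adjustment over 10832 genes. Alternatives were edgeR's robust dispersion tested by likelihood ratio, DESeq2 1.42.0, other scalings and filters, thinning to 2117202 counts, blocks and leaving out each library. Tests were tested on simulated data. Covariation used log2 CPM with a prior count of 2. The labels do not tie pools to separate cultures, so p-values measure only the spread between these pools. No libraries of a treatment were duplicates (chi-square per degree of freedom 3.74 to 30.2 over 30 pairs).

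The 9 genes and the 13 other lists were chosen with earlier results of these data known. Genes named are the 9, their 3 closest genes by r (those without a LOC symbol), the 4 with the smallest p per list for FoEV against Co, and fixed partners such as NANOG and LAMA1. FERMT2, COL1A1, ELF3, EGR1, COL3A1, COL5A1, COL6A1, COL6A2, DCN, VCAN, POSTN and markers at 0 to 2 reads (TTR, CER1, FOXA2, AFP, LHCGR, INHA, PTX3, HBB) are named outside that rule, after their values were seen.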

Additional observations from a re-analysis of the deposited data

Results flagged for a closer look

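Each group of 5 libraries was examined for a library that stood apart, by the gap to its nearest neighbour over the group's range. Of 30 such groups, 2 had one, and chance gives about 1 in 20. COL4A1 in Co replicate 4 was at 191 CPM, with the next library at 150.2 CPM. Without that library the log2 difference of COL4A1 between FoEV and Co was 0.16 and that between FeEV and Co 0.01. The log2 ratio of COL4A1 to COL4A2 counts in FeEV replicate 5 was 1.04, with the next FeEV library at 1.22. Without it, the FeEV ratio exceeded the Co ratio by 0.25 (two-sided exact permutation test, p = 0.206).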

How the results depend on the processing

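Depth and spread limit these results: GATA4 and SOX17 rest on at most 27 reads per library, and FoEV libraries were the deepest. For FoEV against Co, the number of the 8 genes with an unadjusted p under 0.05 was 1, and it was 0 with thinned counts, 2 with DESeq2, without a filter and with the replicate block, 3 with the robust dispersion, and 0 to 4 with a library left out. Of all 10832 genes, 1631 passed that threshold, and 1539 with thinned counts, 1588 with DESeq2 and 1911 with the replicate block. With the robust dispersion 1962 passed, and 1244 to 1956 with a library left out. Without a filter 2617 of 25470 did. Of the 8 genes, the number at the adjusted threshold was 0, and 1 with the robust dispersion. For FeEV against Co the unadjusted number of the 8 was 0, and 1 without a filter, with the replicate block and with the robust dispersion, and 0 to 1 with a library left out. Over all genes it was 449, and 1136 of 25470 without a filter, 579, 664, and 314 to 610 in those settings. For FoEV against FeEV the number of the 8 was 0, and 0 to 1 with a library left out, beside 923 and 636 to 1231 of all genes. The cause was not tested. Over all genes, 1 was called for FoEV against Co, and 8 with library totals, 311 with the robust dispersion, 144 with DESeq2, 173 without a filter, 5 with only the compared treatments, 57 with the replicate block and 12 with the library number block. For FeEV against Co, 0 genes were called, and 6 with the robust dispersion and 13 without a filter; for FoEV against FeEV, 0 were called, and 31 and 22. Deviations of same-numbered FoEV and Co libraries had an r of -0.30 to 0.35, over 0.1 in 1 of 5 and best with their own number in 1 of 5. For FeEV and Co r was -0.22 to 0.43 (3 of 5 over 0.1, 2 best with their own number). For FoEV and FeEV it was 0.0047 to 0.44 (3 of 5 over 0.1, 2 best with their own number). The labels state no pairing, and the oEVs of both treatments shared their oviducts. These r could not settle whether libraries are paired, so replicate numbers served as a block in an alternative only.

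Differences near 0 changed sign. With the library number block, COL4A1 for FeEV against Co was 0.015, COL4A2 for FoEV against FeEV -0.018, GATA6 for FoEV against Co 0.019 and LAMA5 0.024. COL4A2 for FoEV against FeEV was -0.039 with library totals, -0.050 with the robust dispersion and -0.073 with thinned counts, and GATA4 for FeEV against Co was -0.053 with thinned counts. LAMC1 for FoEV against FeEV was -0.023 with library totals and -0.0043 without a filter. SERPINH1 for FoEV against Co was -0.018 with the replicate block and -0.13 with the robust dispersion.

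With a library left out, differences that changed sign for FoEV against Co ranged from -0.33 to 0.0048 for COL1A2, -0.0029 to 0.16 for COL4A1, -0.072 to 0.015 for GATA6, -0.10 to 0.042 for LAMA5, -0.033 to 0.13 for LAMB1, -0.54 to 0.16 for MUC1, -0.25 to 0.30 for SERPINH1, -0.28 to 0.11 for SOX2 and -0.20 to 0.00035 for VWF. For FeEV against Co they ranged from -0.19 to 0.012 for COL4A1 and -0.14 to 0.46 for GATA4, and for FoEV against FeEV from -0.15 to 0.11 for COL4A2 and -0.032 to 0.039 for LAMC1. Of the other settings for single genes, 757 gave the same side of the threshold and direction, 41 passed the unadjusted threshold newly, 13 no longer passed it and 12 changed sign. A prior count of 0.5 or the size factors of DESeq2 left the r of PDGFRA with HNF4A at 0.87. With sign flips within replicate numbers as a block, the exact p of the COL4A1 to COL4A2 ratio was 0.375 for FeEV against Co and 0.313 for FoEV against Co, where 5 pairs cannot go below 0.0625. Levels per length were not run, since only genomic spans were at hand.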

Other observations

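The wider lists also held genes that passed the unadjusted threshold in the comparisons other than FoEV against Co, none with an adjusted p under 0.45. For FoEV against FeEV, APOE differed by 0.72 on the log2 scale (unadjusted p = 0.00286, adjusted p = 0.450), TIMP2 by 0.51 (unadjusted p = 0.00401), GRB2 by 0.33, COLGALT1 by 0.25 and FERMT2, which encodes the integrin activator kindlin-2, by -0.19. COL1A1, a fibroblast collagen, differed by 0.98 (unadjusted p = 0.0223), and the trophectoderm markers KRT18 and ELF3 by 0.29 and 0.60.

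For FeEV against Co, 3 of 8 stress and immediate early genes had an unadjusted p under 0.05, beside 4.15% of all genes. They were FOS (-0.79, unadjusted p = 0.00457), JUNB (-0.60) and EGR1 (-0.76), each with an adjusted p of 1.00. NANOG differed by -0.62 in that comparison (unadjusted p = 0.0342), ADAMTS1 by -0.50, ADAM10 by -0.19 and P4HA1 by -0.27. Markers of other cells with an unadjusted p under 0.05 were FSHR (-0.55), MUC16 (-0.88) and VWF (-0.54).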
